A study of Mus musculus with 18 samples.

Results

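The genes described here are those whose response to loss of 14-3-3ε differed between classically and alternatively activated macrophages. Each gene's knockout effect, the 14-3-3ε knockout against WT, was taken in M1 and in M2 macrophages, and the M2 effect was subtracted from the M1 effect. This difference of effects passed an adjusted p of 0.05 for 61 of the 21336 genes tested, or 0.286%, with 30 genes (0.141%) higher and 31 genes (0.145%) lower in M1 than in M2. It was taken over 12 of the 18 libraries of the series, 3 in each of 4 groups, while the spread was estimated from all 18. A positive difference means that the knockout raised the gene more, or lowered it less, in M1.

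All cells were bone marrow-derived macrophages of C57BL/6 mice, a common inbred strain, differentiated for 7 days in 10 ng/ml M-CSF, the macrophage growth factor, and 10% serum. WT M1 and knockout M1 cells then received 100 ng/ml LPS, a bacterial cell wall component, with 20 ng/ml interferon gamma for 18 h, and WT M2 and knockout M2 cells received 20 ng/ml IL-4 for 18 h. The knockout is labelled as a myeloid 14-3-3ε knockout; the promoter that drives the recombinase and the exons removed are not given in the sources used here. A PGRN knockout, lacking progranulin, made up the remaining 6 libraries. Whether the 3 libraries of a group came from separate mice or cultures is not given either, so the p-values speak only of the spread seen among these libraries, which may be technical.

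The 14-3-3 proteins are small dimeric adaptors that bind phosphorylated serine and threonine residues and thereby hold, hide or relocate the kinases, receptors and transcription regulators they grip. The ε member is encoded by Ywhae and acts in growth factor, stress and cytokine signalling, and it has been described as a partner of tumour necrosis factor receptors. LPS acts through TLR4 and NF-κB and through secreted type I interferon, interferon gamma and IL-4 each act through a receptor and its own JAK-STAT pathway, so the same missing adaptor meets different active pathways in the M1 and M2 states.

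Depth differed between the groups. In M reads, the depth recovered per library was 5.16 to 14.5 in WT M1, 19.9 to 105 in knockout M1, 14.2 to 30.6 in WT M2 and 16.9 to 27.3 in knockout M2, so depth separated the WT M1 from the knockout M1 libraries. Ribosomal RNA-like genes held 14.8% of the reads in WT M2 replicate 3 and 1.88% in WT M1 replicate 2. Of 19 macrophage identity genes, all had reads in these libraries, with a summed level of 14561 to 21668 CPM (counts per M reads) in WT M1, 9245 to 13230 in knockout M1, 9331 to 9783 in WT M2 and 6200 to 7073 in knockout M2. Lyz2, 1 of the 19, had mean normalised counts of 236182 in WT M1 and 75310 in knockout M1, and 83995 and 20000 in M2. Its knockout libraries were spread widely, at 123842, 32601 and 69486 in M1 and 29558, 8510 and 21932 in M2. Whether the recombinase driver, which is not given, has a part in the Lyz2 values was not tested. Csf1r and Itgam, also listed, had means of 16716 and 16843 in WT M1 and 21167 and 21407 in knockout M1, rises that did not pass. In M1 the knockout lowered 10 of the 19 and raised 2, against 9.31% and 12% of all genes. Stromal genes summed to 17807 to 29944 CPM in WT M1 and 31623 to 38564 in knockout M1, and to 18800 to 29285 in WT M2 and 29137 to 36871 in knockout M2; the part of these shifts in the results was not tested. In bulk RNA, fewer cells of a type and less RNA per cell cannot be told apart.

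Ywhae itself was lower in the knockout in both states. It had 9859, 9021 and 9034 normalised counts in WT M1 and 6214, 5191 and 5537 in knockout M1, and 9015, 8203 and 8999 in WT M2 and 5088, 4362 and 5131 in knockout M2. Knockout and WT libraries did not overlap in either state, and the knockout still held a high level of Ywhae reads. The effect was -0.72 ± 0.08 (log2 fold change ± SE, n = 3 libraries per group) in M1 and -0.85 ± 0.08 in M2 (limma adjusted p = 3.02e-05 and 7.76e-06), and the difference of 0.13 ± 0.11 did not pass (limma adjusted p = 0.779). None of the 7 genes of the 14-3-3 family passed for the difference, and the family's median difference was 0.21, against 0.06 over all genes.

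The knockout effect passed the threshold for 4541 genes (21.3%) in M1, 2554 higher (12%) and 1987 lower (9.31%), and for 1427 (6.69%) in M2, 709 higher (3.32%) and 718 lower (3.37%). It passed in both states for 936 genes, 933 of them with the same sign. Across the 11022 genes of at least 5 CPM, the M1 and M2 effects had a Pearson r of 0.77, given as a description because genes are not independent replicates and the libraries differ in depth. Passing in only one state rarely came with a tested difference. Of 3605 genes that passed in M1 alone, 41 passed for the difference, as did 13 of the 491 genes that passed in M2 alone and 7 of the 936 that passed in both. No gene passed for the difference without passing in at least 1 state.

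The 61 genes fell into a few patterns. In 20 a rise with the knockout passed the threshold in M1 alone, and in 21 a fall did so. In 7 a rise passed in M2 alone, and in 6 a fall did so. Not passing in the other state is not the same as no change there. Wfdc17 and Aph1c, for example, fell in M1 past the threshold and were below WT in all knockout M2 libraries too. Another 3 passed in both states with opposite signs and 4 passed in both with the same sign but unequal size. Knockout and WT libraries did not overlap in M1 for 50 of the 61 genes and in M2 for 35, where 32.8% and 31.6% of all tested genes did not overlap; since the test favours separated libraries, nothing is read from these counts. The difference was over 2-fold for 35 genes, 13 higher and 22 lower.

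**Figure D1:**
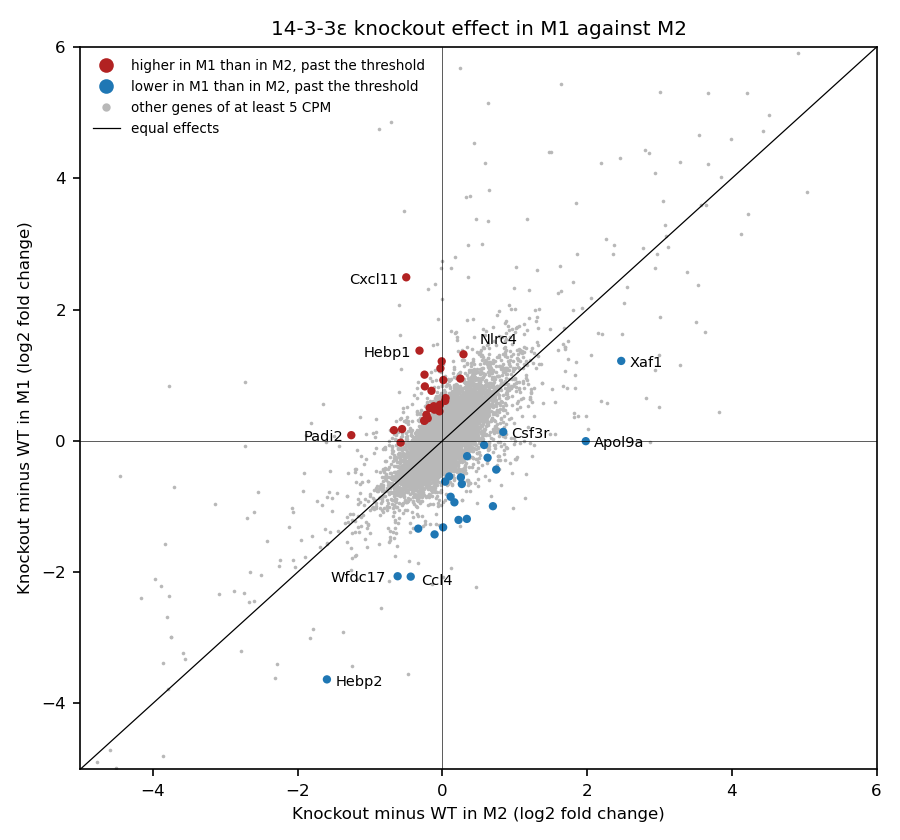
Knockout effect in M1 (vertical, log2 fold change against WT) against the effect in M2 (horizontal) for 11022 genes of at least 5 CPM; the diagonal marks equal effects. Coloured points are the genes past an adjusted p of 0.05 for the difference (48 at this level, 1 of them outside the axes, as are 18 of all genes), red above the diagonal and blue below it; most red points lie above 0 on the vertical axis near 0 on the horizontal, while Xaf1 and Apol9a stand out to the right.

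The count depends on single libraries and on the fit, and most calls lie near the threshold. Of the 61 genes, 54 had an adjusted p of 0.02 or more and 5 were under 0.01. Without 1 library the count ran from 9 (WT M2 replicate 1 or knockout M2 replicate 2 left out) to 192 (WT M1 replicate 2 left out); the others gave 17 to 67, and leaving out WT M1 replicate 1 (67) alone kept it within 1.5 times. With the 4 groups fitted alone 8 genes passed. Scaling by library totals gave 10 higher and 27 lower genes, and precision weights (voom) on the recovered reads gave 5 and 10, with the median of all genes at 0.01 and -0.04 in place of 0.06. With all libraries thinned to the shallowest depth, 23 genes passed, 18 of them among the 59 of these genes that were still tested. In simulated data at the real depths, 85% of 2-fold and 99% of 4-fold differences were recovered and 9.80% of the calls were unchanged genes, above the nominal share. The differences were planted in knockout M1 alone, in 200 genes of at least 5 CPM in at least 3 libraries, with a smoothed spread. The recovery rates therefore do not cover genes with fewer reads. All 61 genes kept their sign under each alternative setting in which they were tested (19 to 21 of the 21), and 4 genes, Hebp1, Psat1 and Arhgap19 among them, passed under all 21.

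Hebp1 and Hebp2, which encode related heme-binding proteins, moved apart. The Hebp1 protein is also the source of a peptide that activates formyl peptide receptors on leukocytes. Hebp1 (chromosome 6, 135137522 to 135198022, minus strand, GRCm38) had 352, 245 and 253 normalised counts in WT M1, 679, 793 and 711 in knockout M1, 870, 801 and 939 in WT M2 and 705, 735 and 654 in knockout M2. All knockout libraries were above WT in M1 and below WT in M2. Its effect was 1.37 ± 0.12 in M1 (limma adjusted p = 1.65e-06) and -0.32 ± 0.12 in M2 (0.116), a difference of 1.69 ± 0.17 (0.000137). In WT cells Hebp1 was lower in M1 than in M2, and the knockout M1 libraries reached the level of the knockout M2 libraries. Hebp2 (chromosome 10, 18539498 to 18546076, minus strand) had 196, 147 and 119 normalised counts in WT M1, 12.3, 9.05 and 12.7 in knockout M1, 233, 178 and 157 in WT M2 and 57.5, 70.8 and 56 in knockout M2. Hebp2 was lower in every knockout library of both states, and the fall was steeper in M1. The effect was -3.63 ± 0.21 in M1 and -1.60 ± 0.21 in M2, and the difference was -2.04 ± 0.29 (limma adjusted p = 0.01).

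Cd14, Itgax, Slamf8 and Nlrc4, receptor and sensor genes of macrophage activation, rose with the knockout in M1 and not past the threshold in M2. On the toll-like receptor list of 24 genes only Cd14 was called, and the median difference was 0.03. In M1, 6 were raised and 3 lowered. On the inflammasome and cell death list of 21 only Nlrc4 was called, with a median of 0.02, and 5 were raised and 5 lowered. Of all genes 0.286% were called, with a median of 0.06, and 12% were raised and 9.31% lowered in M1. Cd14, which encodes the co-receptor that hands LPS to TLR4, had 6323, 4587 and 5334 normalised counts in WT M1 and 10516, 12580 and 9529 in knockout M1, against 693, 574 and 645 in WT M2 and 452, 618 and 549 in knockout M2. The knockout libraries lay above WT in M1 and overlapped WT in M2, with a difference of 1.26 ± 0.23 (limma adjusted p = 0.0323). Itgax, which encodes the integrin CD11c, had 491, 475 and 610 normalised counts in WT M1 and 1091, 1168 and 1110 in knockout M1. In M2, where it was far higher, Itgax stood at 10386, 10269 and 11672 in WT and 10652, 10872 and 10152 in knockout. The Itgax libraries were apart in M1 only, and the difference was 1.13 ± 0.21 (limma adjusted p = 0.0315). Slamf8, a surface receptor of the SLAM family induced in activated macrophages, had 1565, 1454 and 1710 normalised counts in WT M1, 3028, 2777 and 2600 in knockout M1, 677, 451 and 499 in WT M2 and 549, 425 and 394 in knockout M2. Its difference was 1.07 ± 0.19 (limma adjusted p = 0.0312), and the M2 libraries overlapped.

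Nlrc4 encodes the inflammasome scaffold that answers bacterial flagellin and secretion needles. It had 156, 161 and 189 normalised counts in WT M1, 443, 451 and 373 in knockout M1, 77.2, 68.9 and 74.2 in WT M2 and 85.9, 78.3 and 109 in knockout M2. The knockout libraries were above WT in both states, by 1.32 ± 0.13 in M1 and by a value that did not pass in M2, 0.29 ± 0.13 (limma adjusted p = 8.62e-06 and 0.191), and the difference was 1.03 ± 0.19 (0.0312). Tnfaip2, an NF-κB target first found as induced by tumour necrosis factor, had 3278, 3268 and 3816 normalised counts in WT M1 and 5294, 5840 and 5132 in knockout M1, while WT M2 (2178, 2228 and 2388) and knockout M2 (2535, 2188 and 2293) overlapped; its difference was 0.61 ± 0.12 (limma adjusted p = 0.0459).

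The chemokine genes Cxcl11 and Ccl4 changed in opposite directions in M1. Cxcl11 belongs to the interferon-induced ligands of CXCR3 that attract T cells, and the annotation lists it as a polymorphic pseudogene. It had 566, 355 and 271 normalised counts in WT M1 and 1671, 2502 and 2334 in knockout M1. In M2 it was at the limit of detection, at most 1.33 in WT and 0.68 in knockout, so the difference of 2.99 ± 0.50 (limma adjusted p = 0.0247) rests on the M1 rise of 2.49 ± 0.35. The other CXCR3 ligands did not pass for the difference, at -0.89 ± 0.78 for Cxcl9 and -1.09 ± 0.66 for Cxcl10 (limma adjusted p = 0.773 and 0.631). Ccl4, which encodes the chemoattractant MIP-1β, had 7817, 4835 and 4578 normalised counts in WT M1, 1418, 1489 and 1109 in knockout M1, 337, 280 and 320 in WT M2 and 257, 242 and 194 in knockout M2. Every Ccl4 knockout library was below WT, with an effect of -2.07 ± 0.19 in M1 and -0.44 ± 0.19 in M2, and a difference of -1.63 ± 0.26 (limma adjusted p = 0.0232). Its neighbour Ccl3, encoding MIP-1α, fell in both states, by -1.41 ± 0.13 and -0.64 ± 0.13, and its difference of -0.77 ± 0.18 did not pass (limma adjusted p = 0.111).

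**Figure D2:**
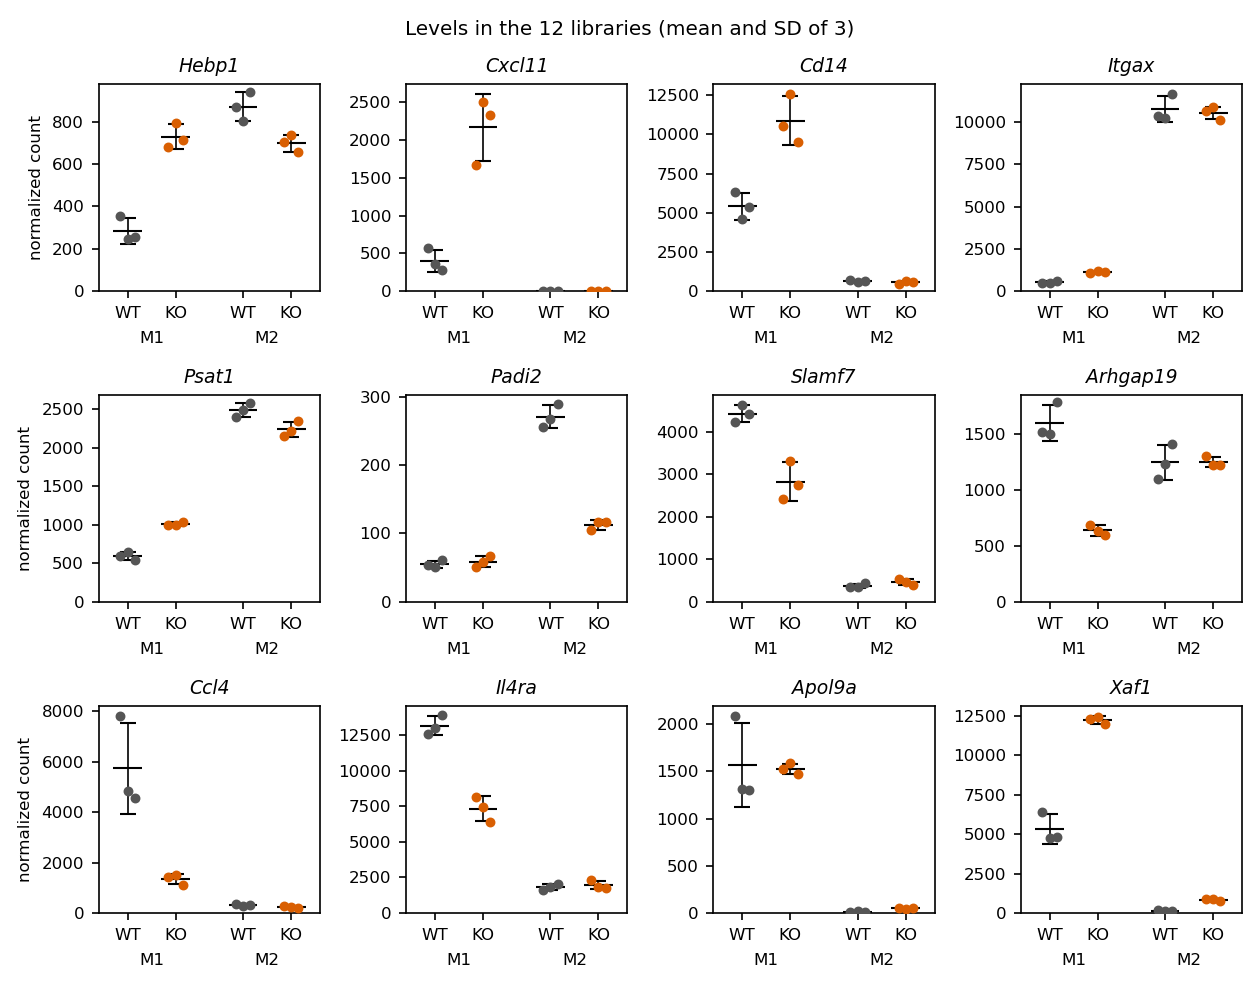
Normalised counts in each library (points) for 12 of the genes named in the text, in WT (grey) and knockout (KO, orange) of the M1 and M2 states, with the mean and SD of 3 libraries; each vertical axis starts at 0. Hebp1 rises in M1 (245 to 352 in WT, 679 to 793 in knockout) while Ccl4, Slamf7, Arhgap19 and Il4ra fall there, and Padi2 falls in M2 only.

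Genes of immune receptors and secreted proteins were also among those lowered in M1. Il4ra, the receptor chain shared by IL-4 and IL-13, was higher in M1 than in M2 and had 12615, 13015 and 13922 normalised counts in WT M1 against 8153, 7439 and 6409 in knockout M1. In M2 the Il4ra libraries overlapped, at 1590, 1812 and 2048 in WT and 2297, 1852 and 1758 in knockout. The effect was -0.85 ± 0.12 in M1 and 0.11 ± 0.12 in M2, and the difference -0.97 ± 0.17 (limma adjusted p = 0.0312). Slamf7, a self-binding SLAM receptor of macrophages and lymphocytes, had 4241, 4640 and 4413 normalised counts in WT M1, 2419, 3314 and 2760 in knockout M1, 355, 359 and 434 in WT M2 and 528, 468 and 393 in knockout M2. The knockout lowered Slamf7 in M1 and raised Slamf8 there, and the Slamf7 difference was -0.93 ± 0.17 (limma adjusted p = 0.0312). Wfdc17, a secreted whey acidic protein of activated macrophages, had 10916, 10768 and 11621 normalised counts in WT M1, 4137, 2228 and 2033 in knockout M1, 3189, 2992 and 3442 in WT M2 and 2300, 2032 and 1942 in knockout M2. All knockout libraries were below WT, by more in M1, and the difference was -1.44 ± 0.27 (limma adjusted p = 0.0315). Wfdc17 (83703991 to 83706268) lies near Ccl4 (83662584 to 83664683) and Ccl3 (83647844 to 83649355) on chromosome 11, which also carries Ywhae. The part of this shared position in their falls was not tested.

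An enzyme of serine metabolism was among the most stable calls. Psat1, the aminotransferase of serine synthesis, had 598, 646 and 543 normalised counts in WT M1, 997, 992 and 1036 in knockout M1, 2395, 2489 and 2575 in WT M2 and 2154, 2219 and 2347 in knockout M2. Knockout libraries were all higher in M1 and all lower in M2, although the M2 effect of -0.15 ± 0.08 did not pass (limma adjusted p = 0.272); the difference was 0.91 ± 0.11 (0.00177). The flanking enzymes of the pathway, Phgdh and Psph, had differences of 0.47 ± 0.21 and 0.34 ± 0.22, which did not pass (limma adjusted p = 0.45 and 0.669).

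Slc2a1, Pfkp and Pgm2l1, genes of glucose use, rose in M1. Slc2a1, encoding the glucose transporter GLUT1, had 1744, 1913 and 1698 normalised counts in WT M1 and 2376, 2698 and 2773 in knockout M1, and overlapped in M2 (1642, 1661 and 1772 against 1600, 1657 and 1698). Pfkp, the platelet form of phosphofructokinase, had 990, 1073 and 948 normalised counts in WT M1 and 1310, 1481 and 1396 in knockout M1, and 2390, 2336 and 2352 against 2171, 2368 and 2037 in M2. Both genes separated knockout from WT in M1 alone, with differences of 0.58 ± 0.11 each (limma adjusted p = 0.0368 for Slc2a1 and 0.0315 for Pfkp). Pgm2l1, which makes glucose 1,6-bisphosphate, had 245, 288 and 226 normalised counts in WT M1 and 556, 475 and 417 in knockout M1, with overlapping M2 libraries of 366 to 423 and 383 to 430 and a difference of 0.91 ± 0.16 (limma adjusted p = 0.0312). Slc2a1 and Pfkp were the 2 called genes of 28 tested on the glycolysis and HIF1 list, on which Pgm2l1 is not. Of all genes 0.286% were called, and a count of 2 is too small to read against that share. Of the 28, 23 had a positive difference, with a median of 0.23 against 0.06 over all genes. In M1, 10 were raised and 1 lowered, where the knockout raised 12% and lowered 9.31% of all genes.

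Among signalling and stress genes, Rps6ka2 (the kinase RSK3) had 285, 347 and 311 normalised counts in WT M1 and 681, 549 and 594 in knockout M1, and 617, 605 and 603 against 782, 636 and 760 in M2. Pik3cb, the p110β catalytic subunit of PI3-kinase, had 504, 548 and 543 against 669, 725 and 706 in M1 and 748, 748 and 865 against 690, 714 and 621 in M2. The M2 libraries were also apart for both genes, with Rps6ka2 above and Pik3cb below WT, but neither M2 effect passed (0.25 ± 0.10 and -0.22 ± 0.08). The differences were 0.70 ± 0.14 for Rps6ka2 and 0.62 ± 0.11 for Pik3cb (limma adjusted p = 0.0397 and 0.0315). The sister subunits had differences of 0.00 ± 0.11 for Pik3ca and -0.50 ± 0.14 for Pik3cd, which did not pass (limma adjusted p = 0.997 and 0.186). Ybx3, a cold-shock domain protein that binds DNA and RNA, Dram1, a lysosomal membrane protein of autophagy, and Hsph1, a large heat shock protein, rose in M1 by 0.50 ± 0.09, 0.53 ± 0.08 and 0.45 ± 0.07. Their M2 effects, -0.18, -0.12 and -0.04, did not pass, and the differences were 0.68 ± 0.13, 0.65 ± 0.12 and 0.49 ± 0.10 (limma adjusted p = 0.032, 0.0315 and 0.0423).

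Other genes lowered in M1 act in lipid handling, proteolysis and the cytoskeleton. Arhgap19, a GTPase-activating protein, had 1516, 1492 and 1780 normalised counts in WT M1, 690, 634 and 593 in knockout M1, 1094, 1231 and 1406 in WT M2 and 1299, 1222 and 1218 in knockout M2. The Arhgap19 libraries were far apart in M1 and overlapped in M2, with effects of -1.32 ± 0.09 and 0.01 ± 0.09 and a difference of -1.33 ± 0.13 (limma adjusted p = 0.000137). Apoc2, the cofactor of lipoprotein lipase, had 1204, 706 and 1003 normalised counts in WT M1 and 386, 365 and 311 in knockout M1, with 167 to 216 in WT M2 and 168 to 183 in knockout M2. Its difference was -1.32 ± 0.21 (limma adjusted p = 0.0232). Aph1c, a subunit of γ-secretase, had 575, 427 and 503 normalised counts in WT M1, 193, 195 and 201 in knockout M1, 1019, 882 and 1145 in WT M2 and 825, 766 and 814 in knockout M2. All Aph1c knockout libraries were below WT, by -1.34 ± 0.11 in M1 and by -0.33 ± 0.11 in M2, where the effect did not pass (limma adjusted p = 9.66e-07 and 0.0748). The Aph1c difference was -1.004 ± 0.15 (limma adjusted p = 0.0169), and the paralogs Aph1a and Aph1b had differences of 0.12 ± 0.10 and -0.08 ± 0.21 (0.735 and 0.941).

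Cbr2, a carbonyl reductase, had 883, 880 and 771 normalised counts in WT M1 and 255, 405 and 472 in knockout M1, with 1315 to 1577 in WT M2 and 1530 to 1942 in knockout M2. Nxpe5, of the neurexophilin and PC-esterase family, had 736, 1005 and 1311 in WT M1, 588, 443 and 469 in knockout M1, 721, 989 and 1049 in WT M2 and 2021, 1290 and 1228 in knockout M2. Cbr2 was apart in M1 alone, and Nxpe5 was apart in both states with opposite directions, although its M2 effect of 0.70 ± 0.21 did not pass (limma adjusted p = 0.0608). The differences were -1.43 ± 0.23 for Cbr2 and -1.69 ± 0.30 for Nxpe5 (limma adjusted p = 0.0232 and 0.0312).

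In M2 the knockout lowered 6 of the higher-in-M1 genes without a change past the threshold in M1. Padi2, an enzyme that converts arginine residues to citrulline, had 255, 267 and 290 normalised counts in WT M2 and 105, 117 and 116 in knockout M2, against 53.5, 51.1 and 61.0 in WT M1 and 50.6, 58.3 and 67.7 in knockout M1. Padi2 was a gene of the M2 state in WT, and its M2 libraries did not overlap. Its effect was -1.26 ± 0.16 in M2 and 0.09 ± 0.16 in M1, and the difference 1.35 ± 0.23 (limma adjusted p = 0.0279). Tmem165, a Golgi membrane protein of ion balance, had 1483, 1376 and 1508 normalised counts in WT M2 and 885, 907 and 952 in knockout M2, with overlapping M1 libraries of 745 to 1034 and 1010 to 1064 and a difference of 0.83 ± 0.14 (limma adjusted p = 0.0279). Nampt, the rate-limiting enzyme of NAD salvage, had 2552, 2407 and 2780 normalised counts in WT M2 and 1847, 1705 and 1701 in knockout M2, with overlapping M1 libraries of 2930 to 4012 and 3781 to 4417 and a difference of 0.74 ± 0.15 (limma adjusted p = 0.048). Both were lower in every knockout M2 library. The others of the 6, named after their values were seen, were Rhob, a small GTPase (difference 0.55 ± 0.09), and the thinly measured Galnt9 and Akr1c19.

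**Figure D3:**
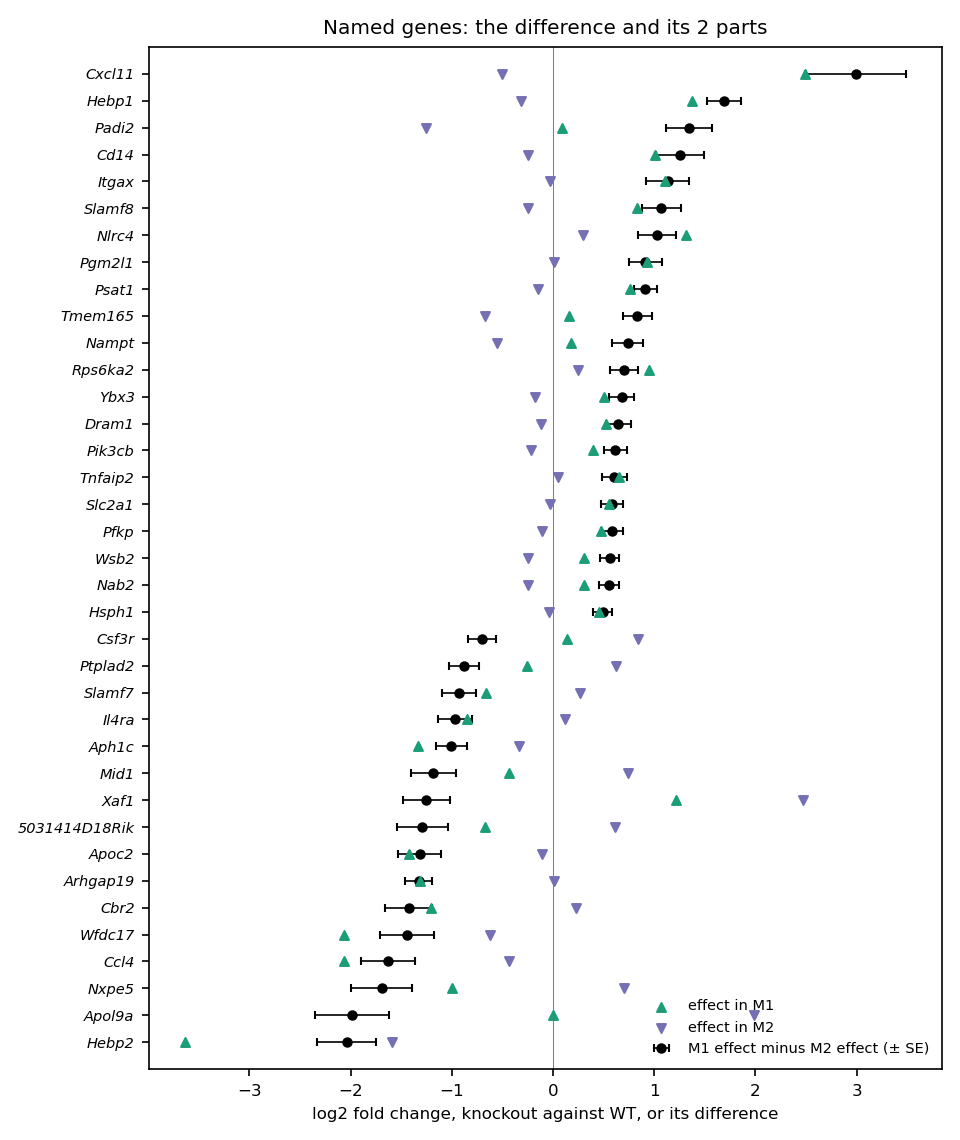
Difference of knockout effects between M1 and M2 (black, ± SE) for 37 named genes, with the effect in M1 (green, pointing up) and in M2 (violet, pointing down), all as log2 fold change. For Hebp1, Cd14 and Itgax the M1 effect lies close to the difference and the M2 effect close to 0, while for Padi2, Tmem165, Apol9a and Csf3r it is the M2 effect that is far from 0.

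In M2 the knockout raised 7 of the lower-in-M1 genes without a change past the threshold in M1, among them the interferon-induced Apol9a and Uba7. Apol9a, an apolipoprotein L gene, had 10.6, 19.4 and 8.25 normalised counts in WT M2 and 50.0, 46.1 and 55.1 in knockout M2, against 2082, 1318 and 1301 in WT M1 and 1521, 1584 and 1469 in knockout M1. Its M2 libraries were apart and its M1 libraries, at a far higher level, overlapped. The effect was 1.98 ± 0.26 in M2 and -0.00 ± 0.26 in M1, a difference of -1.99 ± 0.37 (limma adjusted p = 0.0315). The WT M2 level rests on 8, 32 and 8 reads. The difference passed under 7 of the 21 alternatives, and not at equal depth, with voom or with the 4 groups alone. The near-identical Apol9b, with which Apol9a can share reads, had a difference of -1.16 ± 0.64 (limma adjusted p = 0.585), so the split of reads between them is uncertain. Trim12c, a TRIM ubiquitin ligase gene, had 285, 274 and 244 normalised counts in WT M2, 402, 403 and 392 in knockout M2, 1744, 1537 and 1548 in WT M1 and 1530, 1635 and 1455 in knockout M1. Uba7, the activating enzyme of the ubiquitin-like ISG15, had 474, 448 and 494 normalised counts in WT M2, 610, 664 and 527 in knockout M2, 6555, 6282 and 6108 in WT M1 and 5187, 5764 and 5183 in knockout M1. Both were raised in M2, where no libraries overlapped, and their differences were -0.64 ± 0.13 and -0.57 ± 0.11 (limma adjusted p = 0.0423 and 0.0454); both were named after their values were seen.

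Xaf1, an interferon-induced antagonist of the apoptosis inhibitor XIAP, rose in both states. It had 193, 146 and 116 normalised counts in WT M2, 863, 876 and 754 in knockout M2, 6421, 4728 and 4800 in WT M1 and 12328, 12432 and 11972 in knockout M1. The knockout libraries were above WT throughout, by 2.47 ± 0.16 in M2 and 1.22 ± 0.16 in M1, a difference of -1.25 ± 0.23 (limma adjusted p = 0.0315). Xaf1 lies on chromosome 11 (72301629 to 72313733), which also carries the targeted Ywhae (75732869 to 75765845). The part of this shared chromosome in the Xaf1 values was not tested.

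The type I interferon response genes as a group had differences below 0. Of 32 tested, 1 passed (Xaf1), where 0.286% of all genes passed. Of the 32, 31 were negative, with a median of -0.58, against 9311 negative and 12022 positive of all genes and a median of 0.06. In M2, 15 rose with the knockout and none fell, against 3.32% and 3.37% of all genes, with a median effect of 0.48. In M1, 5 rose and 2 fell, against 12% and 9.31% of all genes, with a median of -0.12. The median difference lay between -0.67 and -0.50 under all 21 alternatives. The members share the same libraries and are not independent replicates. The list's median level per library (log2 of the normalised count plus 1) was 7.43, 7.12 and 7.27 in WT M2. In knockout M2 it was 7.92, 7.98 and 7.38, so replicate 3 lay within the WT range. In M1 it was 12.82, 12.78 and 12.80 in WT and higher, at 12.93, 13.24 and 12.91, in the knockout. Mx2, a gene of the antiviral GTPase family, is listed by the annotation as a polymorphic pseudogene. It had 6.65, 8.47 and 5.15 normalised counts in WT M2, 32.4, 32.2 and 18.7 in knockout M2, 2140, 1614 and 1542 in WT M1 and 2022, 2405 and 2403 in knockout M1. Irf7, the amplifier of interferon production, had 259, 169 and 229 in WT M2, 502, 428 and 303 in knockout M2, 61564, 55883 and 60639 in WT M1 and 54864, 56154 and 54764 in knockout M1. Both were raised in M2, from a level far below that of M1, and their differences of -1.49 ± 0.33 and -0.997 ± 0.28 did not pass (limma adjusted p = 0.0854 and 0.196). Ifi44l was the 1 member with a positive difference. Members of this list and of those below that did not pass were named after their values were seen.

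**Figure D4:**
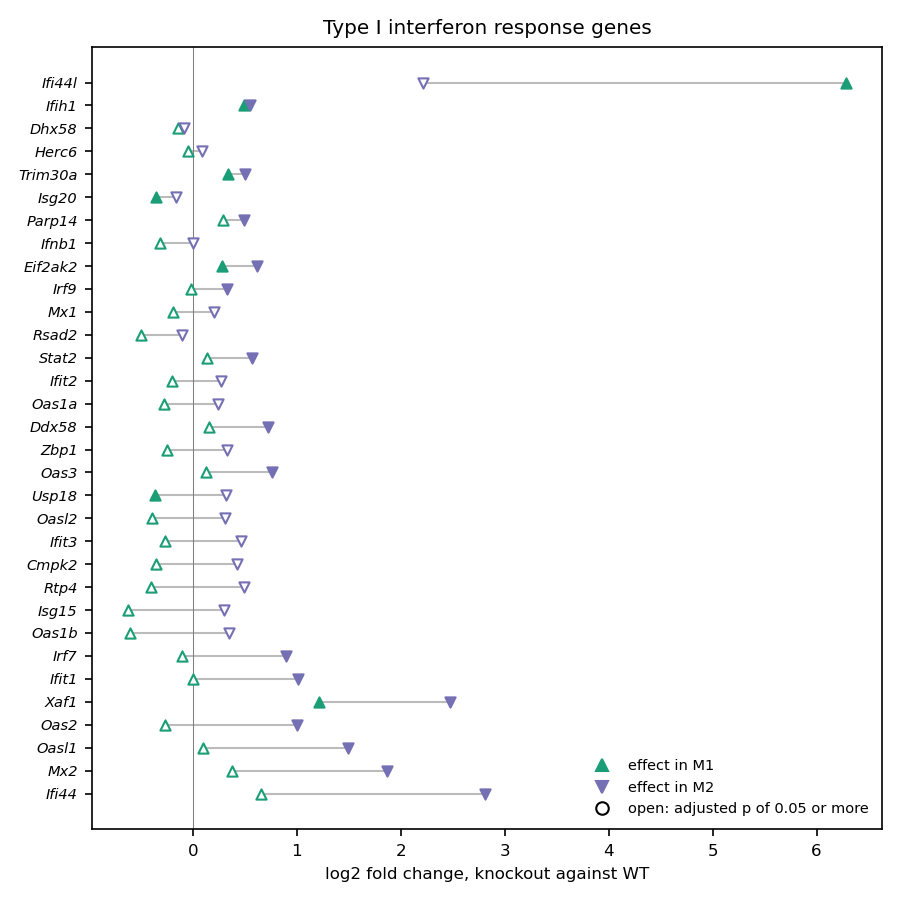
Knockout effect in M1 (green, pointing up) and in M2 (violet, pointing down) for the 32 type I interferon response genes tested, as log2 fold change, ordered by their difference; filled symbols passed an adjusted p of 0.05 in that state. In 31 genes the M2 symbol lies to the right of the M1 symbol, and Ifi44l at the top is the exception.

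Promoters of the called genes were read for the interferon-stimulated response element, because that element is the binding site of the interferon-activated factor ISGF3. It was searched on both strands as GAAA, any 2 bases and GAAA in the 250 bases before the transcription starts listed by RefSeq (GRCm38.p6), available for 25 of the 30 higher and 24 of the 31 lower genes and for 13472 tested genes. It was present in 2 lower genes (Apol9a and Trim12c), 1 higher gene (Slamf8) and 3.25% of all genes. The sequences follow 5′ to 3′ on the gene's strand, with the matches in capitals, and in Slamf8 and Trim12c also the matches named below.
Apol9a, chr15:77411081-77411330, minus strand: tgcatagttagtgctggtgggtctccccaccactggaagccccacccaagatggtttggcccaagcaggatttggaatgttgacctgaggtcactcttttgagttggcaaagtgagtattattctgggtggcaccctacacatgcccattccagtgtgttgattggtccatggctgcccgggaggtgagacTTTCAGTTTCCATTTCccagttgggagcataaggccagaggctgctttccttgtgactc
Trim12c, chr7:104353350-104353599, minus strand: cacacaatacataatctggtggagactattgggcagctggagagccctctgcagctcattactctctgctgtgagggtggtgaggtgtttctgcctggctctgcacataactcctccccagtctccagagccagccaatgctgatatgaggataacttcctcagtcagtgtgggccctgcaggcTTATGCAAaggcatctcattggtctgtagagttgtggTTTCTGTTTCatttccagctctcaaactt
Slamf8, chr1:172590569-172590818, minus strand: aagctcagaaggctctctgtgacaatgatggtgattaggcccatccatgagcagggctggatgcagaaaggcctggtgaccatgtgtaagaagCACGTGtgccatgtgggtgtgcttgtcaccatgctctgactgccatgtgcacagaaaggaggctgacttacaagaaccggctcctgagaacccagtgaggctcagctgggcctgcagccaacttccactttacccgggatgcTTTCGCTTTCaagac

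In Apol9a 2 overlapping matches lay 59 to 44 bases before the start, in Trim12c 1 match lay 29 to 20 bases before it and in Slamf8 1 match lay 15 to 6 bases before it. The other capitals are a C/EBP match (TTGCNNAA, either strand) in Trim12c and an E-box (CACGTG) in Slamf8. There were 7 other motifs read on both strands. The E-box was in 5 of 25 higher and 0 of 24 lower genes, against 9.10% of all genes, and the AP-1 site TGANTCA in 2 and 5, against 6.13%. The C/EBP motif was in 3 and 5, against 9.43%, the GAS motif TTCNNNGAA in 2 and 0, against 7.23%, and the STAT6 site in 3 and 1, against 5.89%. The NF-κB site was in 5 and 2, against 25.5%, and the CRE in none of either, against 2.76%. A match of letters is a description and shows no binding.

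Outside the interferon genes, Csf3r, the receptor for the neutrophil growth factor G-CSF, had 1267, 1444 and 1479 normalised counts in WT M2, 2693, 2552 and 2264 in knockout M2, 2631, 3103 and 3334 in WT M1 and 3302, 3504 and 3128 in knockout M1. Of the knockout M2 libraries, replicate 1 reached the WT M1 range and the others stayed below it. The effect was 0.84 ± 0.10 in M2 and 0.14 ± 0.10 in M1, and the difference -0.70 ± 0.14 (limma adjusted p = 0.0401). Csf3r is also on the neutrophil list; the 14 neutrophil genes summed to 807 to 1051 CPM in WT M1, 656 to 839 in knockout M1, 182 to 500 in WT M2 and 244 to 379 in knockout M2, and Csf3r was the only one past the threshold for the difference. Of the list, 11 of the 14 differences were positive, with a median of 0.42, and 10 of the 14 M2 effects were negative, with a median of -0.61. Ptplad2, an enzyme of very long fatty acid synthesis that RefSeq lists as Hacd4, had 388, 428 and 413 normalised counts in WT M2, 600, 678 and 621 in knockout M2, 1048, 1122 and 1100 in WT M1 and 984, 984 and 783 in knockout M1. Mid1, a microtubule-bound ubiquitin ligase, had 545, 648 and 635 in WT M2, 1032, 804 and 1273 in knockout M2, 1315, 1590 and 1777 in WT M1 and 1067, 974 and 1438 in knockout M1. Ptplad2 was apart in both states with opposite directions and Mid1 in M2 alone, with differences of -0.88 ± 0.14 and -1.18 ± 0.22 (limma adjusted p = 0.0235 and 0.0349).

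Only 3 genes passed in both states with opposite signs. Wsb2, a substrate adaptor of a ubiquitin ligase, had 2261, 2626 and 2502 normalised counts in WT M1, 3071, 3116 and 2953 in knockout M1, 4276, 4006 and 4454 in WT M2 and 3616, 3410 and 3672 in knockout M2. Nab2, a co-repressor of the EGR transcription factors, had 696, 801 and 704 in WT M1, 933, 916 and 868 in knockout M1, 1744, 1773 and 1602 in WT M2 and 1473, 1454 and 1381 in knockout M2. Both rose by 0.31 ± 0.07 in M1 and fell by 0.25 ± 0.07 in M2, so that the gap between the states narrowed in the knockout. The differences were 0.56 ± 0.10 and 0.55 ± 0.10 (limma adjusted p = 0.0279 and 0.0315). The third, 5031414D18Rik, listed by RefSeq as the autophagy gene Rubcnl, had 165, 132 and 171 normalised counts in WT M1, 86.6, 113 and 92.1 in knockout M1, 63.9, 52.6 and 43.3 in WT M2 and 84.5, 87.9 and 72.1 in knockout M2. It fell in M1 and rose in M2, with a difference of -1.29 ± 0.25 (limma adjusted p = 0.0401), which also narrowed the gap.

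Whether the genes belong to the M1 or the M2 state was read in the PGRN knockout libraries, whose values do not enter the difference but share in the fit's estimate of the spread. Of the 30 higher genes, 16 were higher in M2 and 10 in M1 there, and 4 did not pass, with a median M1-to-M2 log2 fold change of -0.48. Of the 31 lower genes, 21 were higher in M1 and 5 in M2, and 5 did not pass, with a median of 1.35. Among all tested genes, 18.0% were higher in M1 and 19.5% in M2. The PGRN knockout's own difference of effects shares its WT libraries with the one described here, so the values are given side by side only. For the 14-3-3ε and the PGRN knockout in this order, the difference was 1.69 and 1.05 for Hebp1, 0.91 and 0.56 for Psat1, -0.93 and -0.93 for Slamf7, and -0.64 and -0.60 for Trim12c. It was -1.33 and -0.05 for Arhgap19, 2.99 and 0.55 for Cxcl11, and 1.26 and -0.22 for Cd14.

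Over the 37 gene lists, 16 of 780 distinct tested genes passed for the difference, 11 higher and 5 lower (2.05%, against 0.286% of all genes; the lists were chosen with these data known, and nothing is read from the gap). Antigen presentation by MHC class II had 0 of 14 past the threshold, 13 negative differences and a median of -0.54 (range -1.02 to -0.19 over the alternatives). In M2, 7 rose and 0 fell, against 3.32% and 3.37% of all genes. In M1, 4 rose and 2 fell, against 12% and 9.31%. The list's median level per library (log2 of the normalised count plus 1) overlapped in M2, at 9.75 to 10.45 in WT and 10.36 to 11.33 in knockout. H2-DMa, which loads peptides onto class II, had 1232, 827 and 855 normalised counts in WT M2, 2226, 1663 and 1230 in knockout M2, 740, 451 and 439 in WT M1 and 602, 541 and 432 in knockout M1, with libraries that overlap in M1 and, by a narrow margin, in M2, and a difference of -0.81 ± 0.31 (limma adjusted p = 0.366). Chemokines had 21 of 30 negative differences and a median of -0.56, with Cxcl11 higher and Ccl4 lower past the threshold. The interferon gamma response had 0 of 28 past the threshold and a median of -0.25.

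Cholesterol synthesis had 0 of 25 past the threshold for the difference, 20 positive values and a median of 0.38; 9 genes rose and 2 fell in M1, and 1 fell in M2. Sqle, which carries out the first oxygenation of the sterol branch, had 214, 343 and 415 normalised counts in WT M1, 777, 629 and 531 in knockout M1, 1498, 1210 and 1310 in WT M2 and 1570, 1398 and 1489 in knockout M2. It rose in M1, and its difference of 0.88 ± 0.27 did not pass (limma adjusted p = 0.235). The cell cycle list had 36 of 40 positive differences and a median of 0.21, with 17 genes raised and 2 lowered in M1 and 1 and 1 in M2; of all genes, 12% were raised and 9.31% lowered in M1, and 3.32% and 3.37% in M2. The NRF2 and oxidative stress list had 18 of 20 positive and a median of 0.19. M1 markers had 2 genes higher (Cxcl11 and Slamf8) and a median of 0.24, and M2 markers 1 higher (Itgax), 1 lower (Il4ra) and a median of -0.16, whose sign flipped under 1 or more alternatives (range -0.26 to 0.03).

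**Figure D5:**
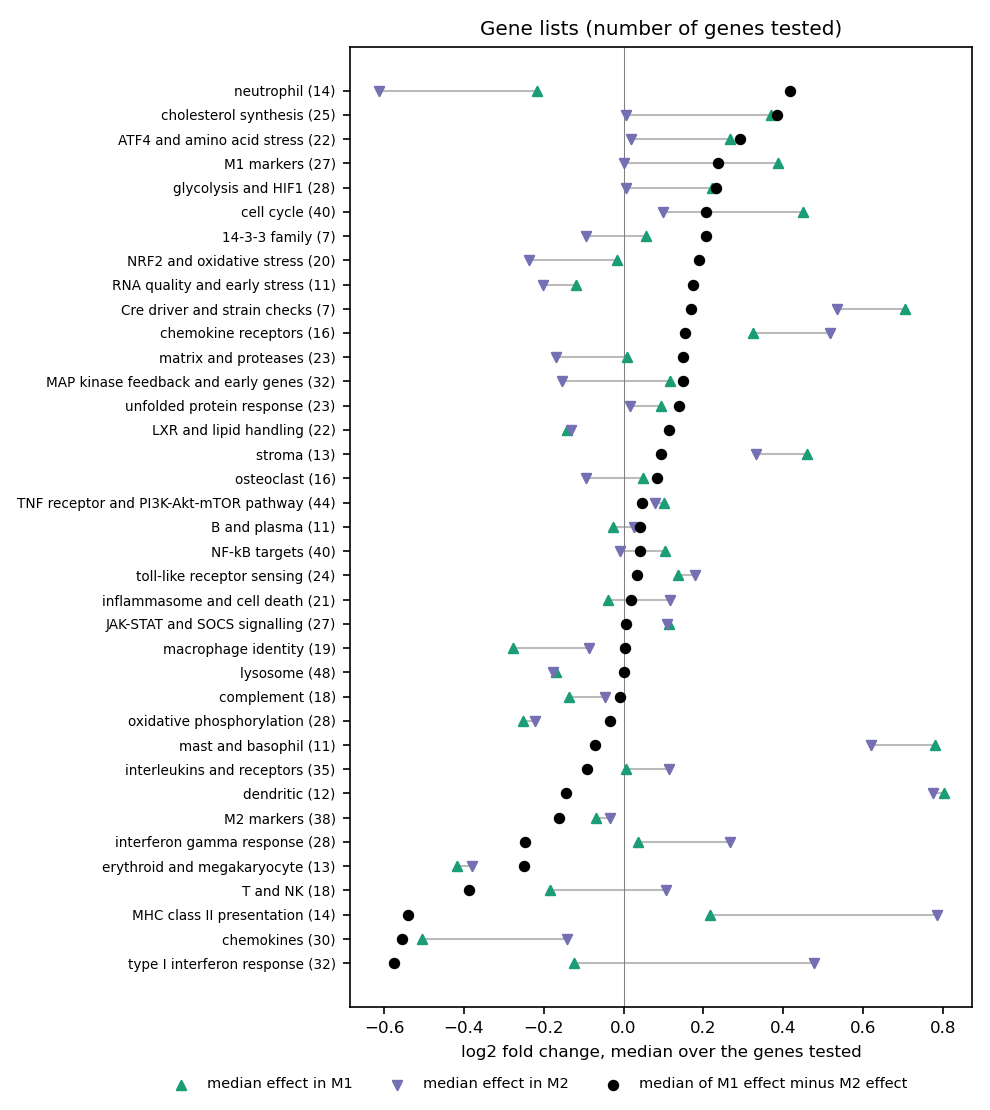
Median log2 fold change over the tested genes of each of 37 lists (number of genes in parentheses) for the knockout effect in M1 (green, pointing up) and in M2 (violet, pointing down) and for their difference (black). The type I interferon (-0.58), chemokine (-0.56) and MHC class II (-0.54) lists have the lowest median differences, and the neutrophil (0.42) and cholesterol synthesis (0.38) lists the highest.

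The largest differences belonged to genes with few reads or to pseudogenes, named here after their values were seen. Gm10182, a processed pseudogene on chromosome 9 (22321105 to 22321377, minus strand), had no read in any WT M1 library and 1046, 765 and 909 normalised counts in knockout M1, at least 101-fold higher when 3 reads are put in each WT M1 library. In M2 it had 23.9, 44.8 and 47.4 in WT and 1429, 1245 and 1931 in knockout. It was absent or low in WT and high in the knockout in both states, and its difference of 4.51 ± 0.36 (limma adjusted p = 1.75e-05) depends on the value given to the WT M1 zeros; the PGRN knockout's difference, which shares those WT libraries, was 4.77. Reads of a processed pseudogene can be shared with its parent gene. Gm27194, a long noncoding RNA gene, had 0 reads in WT M1 and 118, 104 and 125 normalised counts in knockout M1 (at least 12.8-fold higher). In M2 it had 5.32, 5.44 and 5.15 in WT and 166, 135 and 168 in knockout, a fitted effect of 24.8-fold. The M1 bound is below this M2 effect, so the bound does not show a larger effect in M1. Its difference of 2.22 ± 0.45 (limma adjusted p = 0.0459) passed under 3 of the 21 alternatives, and the PGRN knockout's difference was -0.31.

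Under 5 CPM there were 13 called genes, 4 higher and 9 lower. Fabp2, Apoa1, Mep1b and Zg16, genes typical of intestinal epithelium, were lowered in M1. Fabp2 had 37, 29 and 22 reads in WT M1 and at most 2 in any 14-3-3ε knockout or WT M2 library, and Apoa1 had 12, 11 and 10 reads in WT M1 and at most 1 in those libraries. Mep1b had 1, 2 and 4 reads in WT M1 and none in those libraries, and Zg16 had 2, 4 and 5 reads in WT M1, 4 in knockout M1 replicate 1 and 1 in knockout M2 replicate 2. On a list of 24 intestinal epithelial genes drawn up after these values were seen, the summed level was 9.09 to 27.0 CPM in WT M1, 1.27 to 1.66 in knockout M1, 1.65 to 3.79 in WT M2 and 2.31 to 3.00 in knockout M2. Of the 24 genes, 3 had no read in these libraries, and the part of other cells or RNA in these 4 calls was not tested. Galnt9, a mucin-type glycosylation enzyme, had 49.2, 37.5 and 66 normalised counts in WT M2 and at most 3.05 in any library of the other 3 groups compared; in PGRN knockout M2 it had 39.8 ± 10.7 (SD, n = 3). Of the remaining low genes, the pseudogene Gm4398 had reads only in knockout M1, with 4.23 to 6.04 normalised counts, below the 9.01 that 3 reads in each WT M1 library amount to on average. Gm10800 had reads only in knockout M2 (11 to 25.7 normalised counts), at least 5.88-fold higher than in WT M2 when 3 reads are put in each library there. Akr1c19 had 21.3, 9.07 and 21.6 normalised counts in WT M2 and at most 0.68 in knockout M2. C130050O18Rik, 4933430I17Rik and Cryba4 were lowered in M1, with differences of -1.15 ± 0.21, -1.85 ± 0.34 and -1.86 ± 0.36.

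The called genes of at least 5 CPM not yet described all passed in M1 alone. Fip1l1, a subunit of the mRNA polyadenylation machinery, Actr1b, a subunit of dynactin, and the long noncoding RNA gene 1110002J07Rik rose, with differences of 0.57 ± 0.11, 0.54 ± 0.09 and 1.22 ± 0.25. Glrx, which encodes glutaredoxin and removes glutathione from proteins, fell from 25328, 23071 and 22359 normalised counts in WT M1 to 15668, 16736 and 16130 in knockout M1, while the M2 libraries overlapped at 2097 to 2493 and 2275 to 2650. Its difference was -0.64 ± 0.12 (limma adjusted p = 0.0368). Gnpda1, an enzyme of hexosamine breakdown, Slc26a11, an anion transporter, and A530064D06Rik had differences of -0.66 ± 0.12, -0.81 ± 0.16 and -1.10 ± 0.21. At the edge of the threshold, the last called gene was Nampt (difference 0.74, adjusted p = 0.048), and the next genes outside were Mterf4 (-0.79), Tet2 (-0.89), Lrmp (0.86), Ccne2 (1.19) and Oas2 (-1.27), with adjusted p from 0.0557 to 0.0583.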

How the data were processed

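Total RNA of 18 mouse macrophage libraries was sequenced, and the 12 WT and 14-3-3ε knockout libraries enter the comparison. The authors used STAR, RSEM 1.3.1 and DESeq2, per the submitters' processing notes; the build named there, GRCh38, is human while the gene IDs are mouse, so positions come from GENCODE M21 on GRCm38 (42425 of 43309 IDs matched). The deposited values are log2 of a normalised count plus 1, as read from the values, which turn back into whole reads per library to within 0.1 of a read. The design allowed for counts or log2 values, and the log2 test was used. Values called normalised counts are 2 to the power of the deposited value, minus 1.

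Genes reaching a normalised count of 1 in 3 or more libraries entered limma 3.58.1 (R 4.3.3; robust, with a mean-variance trend) as log2 values with a pseudocount of 1, and the 6 groups were fitted together. Fold changes on this scale understate changes of low genes. P-values were adjusted by Benjamini-Hochberg across the 21336 genes, with 0.05 as the threshold. Depth ranged 20.4-fold over the libraries, and a read was worth up to 4.46 normalised counts. The counting floor of 3 reads covers counting error only.

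The genes named are Ywhae; the 15 largest differences in each direction among called genes with at least 5 CPM over the 4 groups, a unique symbol that is no predicted, clone or pseudogene name, and libraries that do not overlap in M1 or in M2; and, without those conditions, up to 8 called genes with opposite signs and up to 4 called members of each list; 1 gene of this rule is not reported here. The genes and lists were chosen with earlier results of these data known. The 37 lists got no test. Alternatives were a pseudocount of 0.1, no filter, at least 5 CPM, the 4 groups alone, the replicate number as a block, scaling by library totals, voom, equal depth (5.16 M reads, seed 1), dropping the 2 libraries with most ribosomal RNA-like reads, and dropping each library in turn. The fit was tested on simulated data. Tables and figures used Python 3.11.15 with numpy 2.4.6, pandas 2.3.3 and matplotlib 3.10.9.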

Additional observations from a re-analysis of the deposited data

Results flagged for a closer look

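The knockout effect differed between M1 and M2 by a test of the difference itself (limma, adjusted p under 0.05) for 61 genes, and the values for the 37 named ones are log2 differences of the M1 and M2 effects. Largest among those higher in M1 were 2.99 for Cxcl11, 1.69 for Hebp1, 1.35 for Padi2, 1.26 for Cd14, 1.13 for Itgax, 1.07 for Slamf8 and 1.03 for Nlrc4. They were followed by 0.91 for Pgm2l1, 0.91 for Psat1, 0.83 for Tmem165, 0.74 for Nampt, 0.70 for Rps6ka2, 0.68 for Ybx3 and 0.65 for Dram1. Smaller values were 0.62 for Pik3cb, 0.61 for Tnfaip2, 0.58 for Slc2a1, 0.58 for Pfkp, 0.56 for Wsb2, 0.55 for Nab2 and 0.49 for Hsph1. Lowest among those lower in M1 were -2.04 for Hebp2, -1.99 for Apol9a, -1.69 for Nxpe5, -1.63 for Ccl4 and -1.44 for Wfdc17. They were followed by -1.43 for Cbr2, -1.33 for Arhgap19, -1.32 for Apoc2, -1.29 for 5031414D18Rik, -1.25 for Xaf1 and -1.18 for Mid1, and then by -1.004 for Aph1c, -0.97 for Il4ra, -0.93 for Slamf7, -0.88 for Ptplad2 and -0.70 for Csf3r. At equal depth, 23 of these 37 genes no longer passed, and the part of other cell types in these values was not tested.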

How the results depend on the processing

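The number of genes past the threshold for the difference, 61 (30 higher, 31 lower), was 8 (4 and 4) with the 4 groups alone, 37 (10 higher) with scaling by library totals, 15 (5 and 10) with voom weights, 23 (10 and 13) at equal depth and 120 (68 and 52) without the 2 libraries that held most ribosomal RNA-like reads; leaving out 1 library gave 9 to 192 in all, 3 to 117 higher and 6 to 75 lower. It stayed within 1.5 times with a pseudocount of 0.1 (52), without a filter (68) and from at least 5 CPM (77). The M1 effect's 4541 genes became 2715 with the 4 groups alone, 2737 at equal depth and 2272 to 6458 without 1 library, and the M2 effect's 1427 became 566, 823 and 577 to 3262; the cause was not tested. Replicate numbers did not pair the libraries across the 4 groups: 5 of 18 same-numbered pairs had a correlation over 0.1 (range -0.43 to 0.51), although all 3 pairs of knockout M1 with knockout M2 did (0.51, 0.39 and 0.44), and 8 of 12 libraries correlated best with their own number. With the replicate block 49 genes passed (21 higher, 28 lower), 40 of them among the 61. Of the 61, 14 also passed with voom. Simulated 2-fold differences, planted only in genes of at least 5 CPM, were recovered in 85% of cases at the real depths and 67% with all libraries at the shallowest depth.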

Other observations

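In 5 lists of macrophage function the counts past the threshold for the difference were 0 to 2, where 0.286% of all genes passed, so these counts are too small to read against that background; the median over all genes was 0.06. The TNF receptor and PI3K-Akt-mTOR pathway had 1 of 44 tested genes past the threshold (Pik3cb) and a median of 0.05, NF-κB targets had 2 of 40 (Tnfaip2 higher, Ccl4 lower) and a median of 0.04, and JAK-STAT and SOCS signalling had 0 of 27 and a median of 0.01. Lysosomal genes had 0 of 48 past the threshold and a median of 0.00, while the knockout lowered 16 of them in M1 and 9 in M2, against 9.31% and 3.37% of all genes. Oxidative phosphorylation had 0 of 28 and a median of -0.03, with 8 genes lowered in M1 and 1 in M2.

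Arg1 and Nos2, enzymes that compete for arginine and mark the M2 and M1 states, had no difference past the threshold. Arg1 had 20598, 25006 and 28534 normalised counts in WT M2 and 12288, 12444 and 11169 in knockout M2, and 143, 159 and 73.1 in WT M1 against 30.9, 23.1 and 75.1 in knockout M1. Its difference was -0.59 ± 0.58 (limma adjusted p = 0.809). Nos2 had 348, 368 and 326 normalised counts in WT M1 and 442, 597 and 625 in knockout M1, and its difference was -0.46 ± 0.67 (limma adjusted p = 0.878). Both were chosen after their values were seen.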
